A study of Homo sapiens with 6 samples.

Results

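Nascent RNA of HCT116 cells exposed to the GSTO1 inhibitor C1-27 for 24 h was set against that of cells exposed for 4 h, to separate early, late, transient and sustained differences. The pair is 2 of the 6 libraries of the series and was taken by its labels, not by any measured value. HCT116 is an established human colorectal carcinoma line, and each library came from 1 culture. Both C1-27 cultures received 1 μM of the compound. The other cultures were 2 vehicle cultures at 0.01% DMSO for 4 h, 1 culture with C1-14, an inactive analogue, at 10 μM for 4 h, and 1 culture with GSTO1 siRNA (siGSTO1) at 10 nM for 24 h. All cultures were labelled with bromouridine for 0.5 h before harvest. No DMSO culture at 24 h and no non-targeting siRNA culture was analysed here, so longer time in culture and longer exposure to C1-27 cannot be told apart. In such bulk RNA, fewer cells in a state and less RNA per cell cannot be told apart either.

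Bru-seq captures bromouridine-labelled RNA, so its reads cover exons and introns and report transcription within the labelling window rather than the pool of mature mRNA. GSTO1 is an atypical glutathione transferase with a catalytic cysteine. Cells meet electrophiles and oxidants through NRF2, a transcription factor that is released from KEAP1 and binds antioxidant response elements in genes for glutathione and thioredoxin metabolism. Sterol supply is governed by SREBP2, which leaves the endoplasmic reticulum when sterols are low, and the related SREBP1 drives fatty acid synthesis. The coactivators YAP and TAZ act with TEAD factors on genes for adhesion, matrix and coagulation, and respond to cell density and the actin cytoskeleton.

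The upstream sequences of 4 genes are shown because each holds a motif of one of these pathways, and these genes recur in the results. They are the 250 bases before a RefSeq start site (GRCh38.p14), 5′ to 3′ on the gene's strand, and capitals mark the motif. Bases are counted back from -1, the last base before the start. SREBF2, which encodes SREBP2, holds the sterol regulatory element TCACNCCAC at -133 (chr22:41832855-41833104, plus strand). CTGF, named CCN2 in RefSeq, encodes a matrix protein of the YAP-TEAD programme and holds the TEAD motif GGAATG at -169, -104 and -95 (chr6:131951373-131951622, minus strand). THBS1, encoding thrombospondin 1, holds 1 copy at -46 (chr15:39580829-39581078, plus strand). GCLM, encoding the modifier subunit of glutamate-cysteine ligase, holds the antioxidant response element TGACNNNGC at -34, read on the opposite strand (chr1:93909431-93909680, minus strand).
SREBF2: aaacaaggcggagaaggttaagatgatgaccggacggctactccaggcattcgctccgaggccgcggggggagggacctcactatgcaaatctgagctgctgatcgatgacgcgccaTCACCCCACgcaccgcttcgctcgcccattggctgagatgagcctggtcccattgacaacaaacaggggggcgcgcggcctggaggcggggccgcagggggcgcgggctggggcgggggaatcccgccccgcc
CTGF: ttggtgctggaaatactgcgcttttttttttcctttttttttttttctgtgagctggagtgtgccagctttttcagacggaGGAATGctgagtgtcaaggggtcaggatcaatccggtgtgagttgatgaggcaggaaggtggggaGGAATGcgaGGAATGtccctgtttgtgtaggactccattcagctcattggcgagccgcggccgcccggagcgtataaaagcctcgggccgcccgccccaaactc
THBS1: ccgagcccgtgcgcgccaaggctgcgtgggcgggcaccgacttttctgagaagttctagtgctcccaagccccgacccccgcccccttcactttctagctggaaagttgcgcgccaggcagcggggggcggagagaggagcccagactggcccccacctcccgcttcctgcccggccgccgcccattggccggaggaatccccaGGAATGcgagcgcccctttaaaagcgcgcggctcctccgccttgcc
GCLM: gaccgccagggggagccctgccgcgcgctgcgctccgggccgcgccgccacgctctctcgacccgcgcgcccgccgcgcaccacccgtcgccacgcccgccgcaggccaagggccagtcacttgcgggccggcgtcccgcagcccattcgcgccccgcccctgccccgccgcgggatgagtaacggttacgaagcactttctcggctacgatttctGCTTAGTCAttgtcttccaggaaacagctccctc

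Both strands were searched, and the letters of the 3 motifs do not overlap one another in these windows. Of all 35116 RefSeq windows of this length, 0.883% hold the sterol element, 10.9% the antioxidant element and 11.9% the TEAD motif. Among listed genes that passed the expression filter and had a window, the sterol element was in 1 of 11 cholesterol genes, the antioxidant element in 4 of 17 NRF2 targets (GCLM, ABCB6, TXNRD1 and CYP4F11) and the TEAD motif in 7 of 11 YAP-TEAD targets (NUAK2, PTPN14, AMOTL2, CTGF, AJUBA, THBS1 and AXL). Counted by window, like the shares of all windows, the motifs were in 1 of 15, 5 of 21 and 7 of 14, in the same order. A match of letters describes the window and was not tested as a binding site.

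Sense-strand reads of genes came to 31020026 at 4 h and 36841146 at 24 h, against 18112861 to 32906297 in the other 4 libraries. Levels are given as RPKM, the deposited read density corrected for gene length and library size. The 2 DMSO cultures differed from each other: of 7825 genes in the filter, culture 2 exceeded culture 1 by 1.4-fold or more at 222 (2.84%) and was below it by that much at 1275 (16.3%), and the SD of the log2 ratio was 0.39. Of 10 colorectal epithelial markers, EPCAM, KRT8, KRT18 and KRT19 passed the filter, whereas none of 10 markers of blood, stromal, endothelial and liver cells did. The latter summed to 0.309 RPKM at 4 h and 0.321 at 24 h. GSTO1 itself was at 3.51 and 3.72 RPKM in DMSO, 3.78 at 4 h and 4.21 at 24 h of C1-27, and 2.70 with siGSTO1. GSTO1 transcription was thus not lower in the inhibitor cultures, and the 24 h over 4 h ratio was 1.12 (95% interval 1.05 to 1.18).

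Among genes that passed the test between 24 h and 4 h, the retinal reductase gene DHRS3 and the lipid genes INSIG1, SCD, FDFT1 and LPIN1 rose, and F3, THBS1, CYR61, GALNT5 and ETS1 fell. By ratio alone, DHRS3 (6.55), DDIT4 (4.52), GDF15 (4.15), INSIG1 (3.58) and SCD (3.24) were the highest of the genes in the filter with at least 100 reads at either time. Of 7784 genes above 300 bp with a mean RPKM above 0.5, 402 (5.16%) were at least 1.4-fold higher at 24 h and 125 (1.61%) at least 1.4-fold lower. At 2-fold there were 26 higher and 9 lower. The SD of the log2 ratio across genes was 0.26, smaller than that between the DMSO cultures, and its median was 0.05. Rescaling with DESeq2 size factors moved that median to -0.07 and the split to 199 higher and 269 lower, and TMM factors gave 248 higher and 203 lower, so the excess of higher genes depends on the scaling. In 96 of the 402 and 40 of the 125 genes, the 24 h library was also past 1.4-fold against each of the 4 cultures taken at 4 h.

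A test used the counts of all 6 libraries in edgeR's quasi-likelihood fit of 14431 genes, where the 2 DMSO cultures give the only residual degree of freedom and each lone library is assumed to vary like them. Nothing in the labels says how the 2 DMSO cultures were separated, so p-values measure the spread between these cultures. At an adjusted p under 0.05, 6 genes (0.0416%) rose and 12 (0.0832%) fell from 4 h to 24 h. Before adjustment, 418 genes had a p under 0.05. DESeq2 called 2 of the genes that rose and 3 of those that fell. DHRS3, SCD, F3, GALNT5 and ETS1 passed in all 7 alternative tests.

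**Figure D1:**
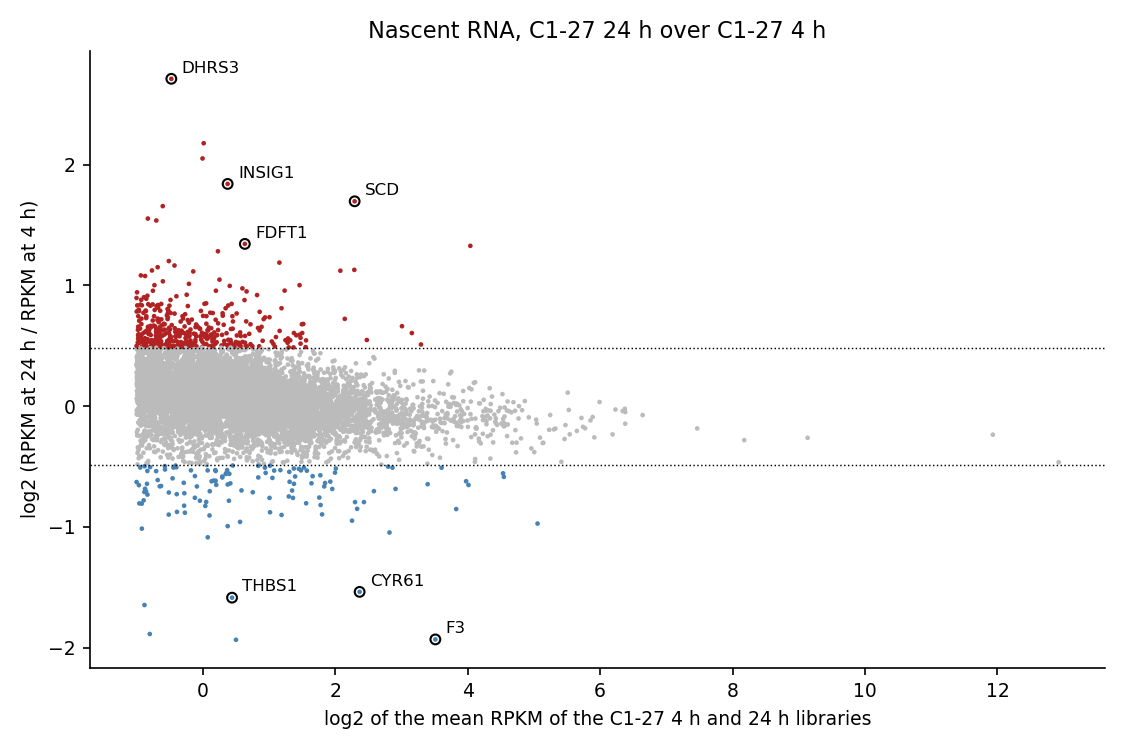
Log2 ratio of RPKM at 24 h over 4 h of C1-27 (y axis) against the log2 mean RPKM of both libraries (x axis), 1 point per gene of 7784 in the filter. Dotted lines mark 1.4-fold, red and blue points lie beyond it (402 higher, 125 lower), and the 7 circled genes passed the edgeR test. DHRS3 lies highest, at 6.55-fold.

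DHRS3, which reduces all-trans-retinal to retinol and is itself a retinoic acid target, showed the largest rise. Its RPKM was 0.335 and 0.245 in the DMSO cultures, 0.267 with C1-14, 0.191 at 4 h and 1.25 at 24 h of C1-27, and 0.735 with siGSTO1. The 24 h level was thus above every 4 h culture, and the siGSTO1 level was also above all of them. The ratio of 24 h to 4 h was 6.55 (95% interval 5.88 to 7.32, from 368 and 2868 reads, counting error only), with an edgeR log2 fold change of 2.63 ± 0.36 (SE) and an adjusted p of 3.47e-09. The gene lies on the minus strand at chr1:12627939-12677820 (hg19, as in the files). Retinoid pathway genes did not share one direction: of 5 in the filter, DHRS3 included, 2 were at least 1.4-fold higher and 1 lower (5.16% and 1.61% of all genes). CRABP2, a retinoic acid carrier, had a ratio of 1.42. ALDH1A3, which makes retinoic acid, was at 6.29 RPKM at 4 h and 3.26 at 24 h, a ratio of 0.52 (0.501 to 0.536) that did not pass the test (adjusted p = 0.23).

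Genes of cholesterol synthesis and uptake were higher at 24 h as a group, with little difference between the cultures at 4 h. Of 25 members in the files, 18 passed the expression filter, and 15 of these were at least 1.4-fold higher and 0 lower, against 5.16% and 1.61% of all genes. All 18 had a ratio above 1, from 1.10 for EBP to 3.58 for INSIG1, also under DESeq2 scaling. Their median log2 ratio was 0.79, against 0.05 over all genes. In 13 of the 18, the 24 h level was past 1.4-fold over each of the 4 cultures at 4 h (96 of all 7784 genes). At 4 h the median log2 ratio to DMSO was 0.04, and only STARD4 was past 1.4-fold. The DMSO cultures differed by a median of -0.04 over the same genes. INSIG1 and FDFT1 passed the edgeR test, and the other 16 did not.

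INSIG1 encodes the endoplasmic reticulum protein that retains SREBP when sterols are plentiful and is itself an SREBP target. Its RPKM was 0.688 and 0.610 in DMSO, 0.624 with C1-14, 0.566 at 4 h, 2.03 at 24 h and 2.95 with siGSTO1. All 4 cultures at 4 h lay close together and both 24 h cultures stood apart from them. INSIG1 rose by a log2 fold change of 1.76 ± 0.40 (SE, edgeR, adjusted p = 0.0122). FDFT1, squalene synthase, was at 0.824 and 0.721 in DMSO, 0.844 with C1-14, 0.878 at 4 h, 2.23 at 24 h and 1.86 with siGSTO1, and rose by 1.26 ± 0.30 (adjusted p = 0.0297). Here too the 2 cultures at 24 h stood above the 4 others without overlap. FDFT1 passed 4 of the 7 alternative tests and INSIG1 passed 6.

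Along the pathway, the ratios were 1.75 for HMGCS1, which acts ahead of mevalonate, 2.00 for IDI1, which isomerises the isoprenoid unit, and 1.8 for SQLE, which epoxidises squalene. For the later sterol steps they were 1.52 for CYP51A1, 2.00 for MSMO1, 1.61 for SC5DL and 1.88 for DHCR7. EBP (1.10), NSDHL (1.24) and FDPS (1.30) were within 1.4-fold. SREBF2, whose upstream element is printed above, had 0.874 and 0.850 RPKM in DMSO, 0.910 at 4 h and 1.55 at 24 h, a ratio of 1.70 (1.63 to 1.79). STARD4, a sterol carrier, had a ratio of 2.43. The 7 members under the filter were too weakly transcribed for the group count.

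Fatty acid and triglyceride genes were also higher at 24 h. Of 17 members, 11 passed the filter, 7 were at least 1.4-fold higher and 0 lower (5.16% and 1.61% of all genes), and the median log2 ratio was 0.53. In 3 of the 11 the 24 h level was past 1.4-fold over each of the 4 cultures at 4 h (96 of all 7784 genes). At 24 h, 3 were past 1.4-fold over the DMSO mean (3.23% of all genes). SCD, which places the double bond in oleate, had RPKM values of 3.07 and 2.36 in DMSO, 3.84 with C1-14, 2.31 at 4 h, 7.5 at 24 h and 12.4 with siGSTO1. Its 24 h level was above every 4 h culture, and it rose by 1.62 ± 0.29 on the log2 scale (edgeR adjusted p = 0.000105). LPIN1, a phosphatidate phosphatase under the RPKM filter, was at 0.297 and 0.262 in DMSO, 0.273 with C1-14, 0.275 at 4 h and 0.722 at 24 h, and rose by 1.31 ± 0.32 (adjusted p = 0.0297), a call that held in 4 of the 7 alternatives. FADS1, a desaturase, had a ratio of 2.94 (2.50 to 3.47) and did not pass (adjusted p = 0.33). SREBF1 was at 1.05 RPKM at 4 h and 1.8 at 24 h, but DMSO culture 1 was at 1.71 and culture 2 at 0.995, so the 24 h value lay close to one of the controls. FASN, the fatty acid synthase, behaved likewise, with 1.24 and 0.787 in DMSO and 1.03 at 24 h. ACACA and ACLY, which feed fatty acid synthesis, had ratios of 1.23 and 1.17.

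**Figure D2:**
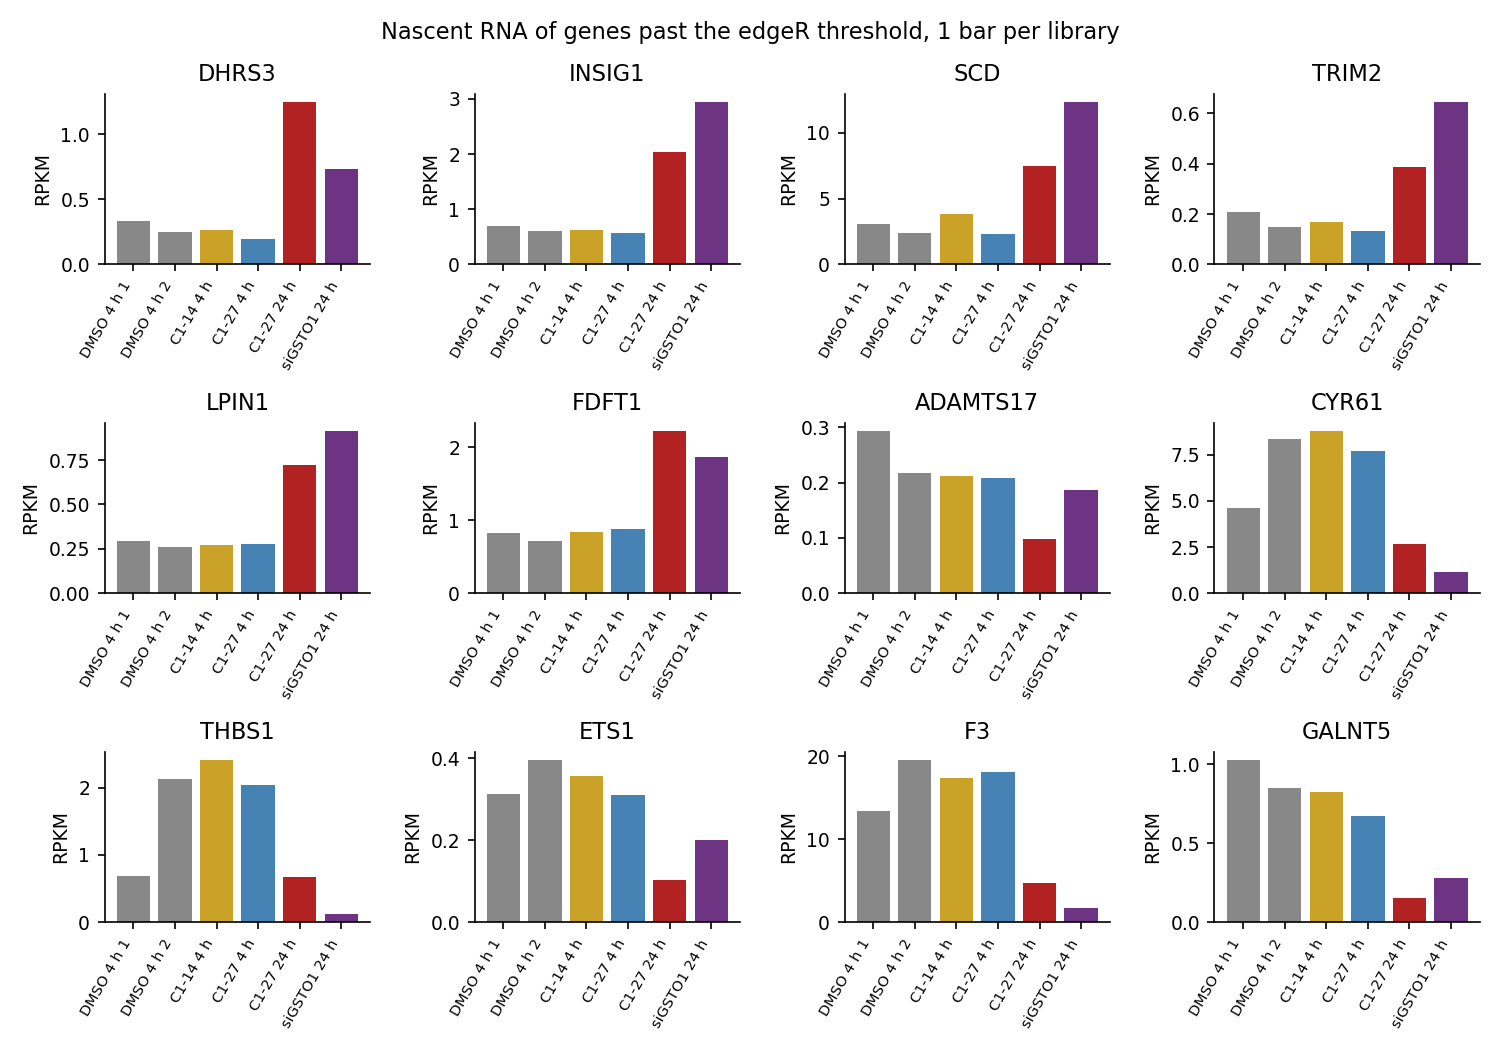
RPKM (y axis, linear, from 0) in each of the 6 libraries (x axis, 1 bar per culture, no error bars) for the 12 genes past the edgeR threshold with at least 0.1 RPKM in 1 library. For DHRS3, INSIG1, SCD, TRIM2, LPIN1 and FDFT1 the C1-27 24 h bar (red) stands above all 4 h bars, and for CYR61, F3, GALNT5, ETS1 and ADAMTS17 below them, whereas for THBS1 it lies at DMSO culture 1 (0.679 and 0.694).

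The remaining gene that rose was TRIM2, a ubiquitin ligase. It was at 0.208 and 0.148 RPKM in DMSO, 0.167 with C1-14, 0.134 at 4 h, 0.386 at 24 h and 0.647 with siGSTO1 (log2 fold change 1.45 ± 0.30, edgeR adjusted p = 0.00303). IDH1, which makes cytosolic NADPH, was the next of the metabolic genes by size: 0.363 and 0.308 RPKM in DMSO, 0.482 with C1-14, 0.317 at 4 h and 0.999 at 24 h, a ratio of 3.15 (2.73 to 3.66) that did not pass (adjusted p = 0.13). Of the 6 NADPH genes in the filter, 2 were at least 1.4-fold higher, IDH1 among them, and 0 lower (5.16% and 1.61% of all genes). Ratios above 1 were seen in 5 (4 under DESeq2 scaling), against 4598 of all 7784 genes (2991 under DESeq2 scaling). ME1, the malic enzyme, and PGD had ratios of 1.31 and 1.33.

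NRF2 targets stood above the DMSO mean at both times. Of 30 members, 22 passed the filter, and 13 were at least 1.4-fold above the DMSO mean already at 4 h (0.457% of all genes), and 18 at 24 h (3.23% of all genes). Against each DMSO culture alone, 9 were past 1.4-fold at 4 h and 15 at 24 h (14 and 154 of all 7784 genes). From 4 h to 24 h, 5 were at least 1.4-fold higher and 2 lower (5.16% and 1.61% of all genes), with a median log2 ratio of 0.22, and none passed the edgeR test between the 2 times. Comparisons with DMSO at 4 h and 24 h share the DMSO cultures. The DMSO cultures themselves differed by a median of -0.30 over these genes.

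OSGIN1, an oxidative stress response gene, was at 0.359 and 0.368 RPKM in DMSO, 0.409 with C1-14, 1.33 at 4 h, 1.58 at 24 h and 0.726 with siGSTO1. Both C1-27 libraries stood above all others, and the ratio between them was 1.19 (1.08 to 1.32). GCLC, the catalytic subunit of glutamate-cysteine ligase, was at 2.32 and 1.97 in DMSO, 3.50 at 4 h and 4.11 at 24 h. Its partner GCLM was lower at 24 h than at 4 h, with 2.27 and 2.38 in DMSO, 2.48 with C1-14, 4.74 at 4 h, 3.31 at 24 h and 1.90 with siGSTO1. The GCLM ratio of 24 h to 4 h was 0.70 (0.668 to 0.731). HMOX1, haem oxygenase 1, had the same order, with 0.338 and 0.309 in DMSO, 0.287 with C1-14, 0.728 at 4 h and 0.501 at 24 h (ratio 0.69, 0.590 to 0.803), although siGSTO1 was at 0.759. TXNRD1, thioredoxin reductase, was at 4.12 and 5.09 in DMSO, 9.17 at 4 h and 7.31 at 24 h (ratio 0.80, 0.787 to 0.807). For these 3 genes the 4 h level was above the 24 h level, and both were above DMSO.

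In contrast, SLC7A11, the cystine importer subunit, was at 0.562 and 0.540 in DMSO, 1.19 at 4 h, 1.78 at 24 h and 3.62 with siGSTO1 (ratio of 24 h to 4 h 1.5, 1.44 to 1.56). NQO1, a quinone reductase, was at 1.73 and 1.04 in DMSO, 2.25 at 4 h and 3.42 at 24 h (ratio 1.52). The iron storage gene FTL was highest at 24 h, with 11.4 and 5.49 RPKM in DMSO, 14.6 with C1-14, 9.38 at 4 h and 23.5 at 24 h (ratio 2.51, 2.28 to 2.77, adjusted p = 0.17). Its 4 h value lay between the DMSO cultures. GSR, SRXN1, ABCB6, ABCC2, PIR and CYP4F11 were 1.45 to 1.94-fold above the DMSO mean at 4 h and 1.53 to 2.59-fold at 24 h, with ratios of 1.05 to 1.34 between the times.

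**Figure D3:**
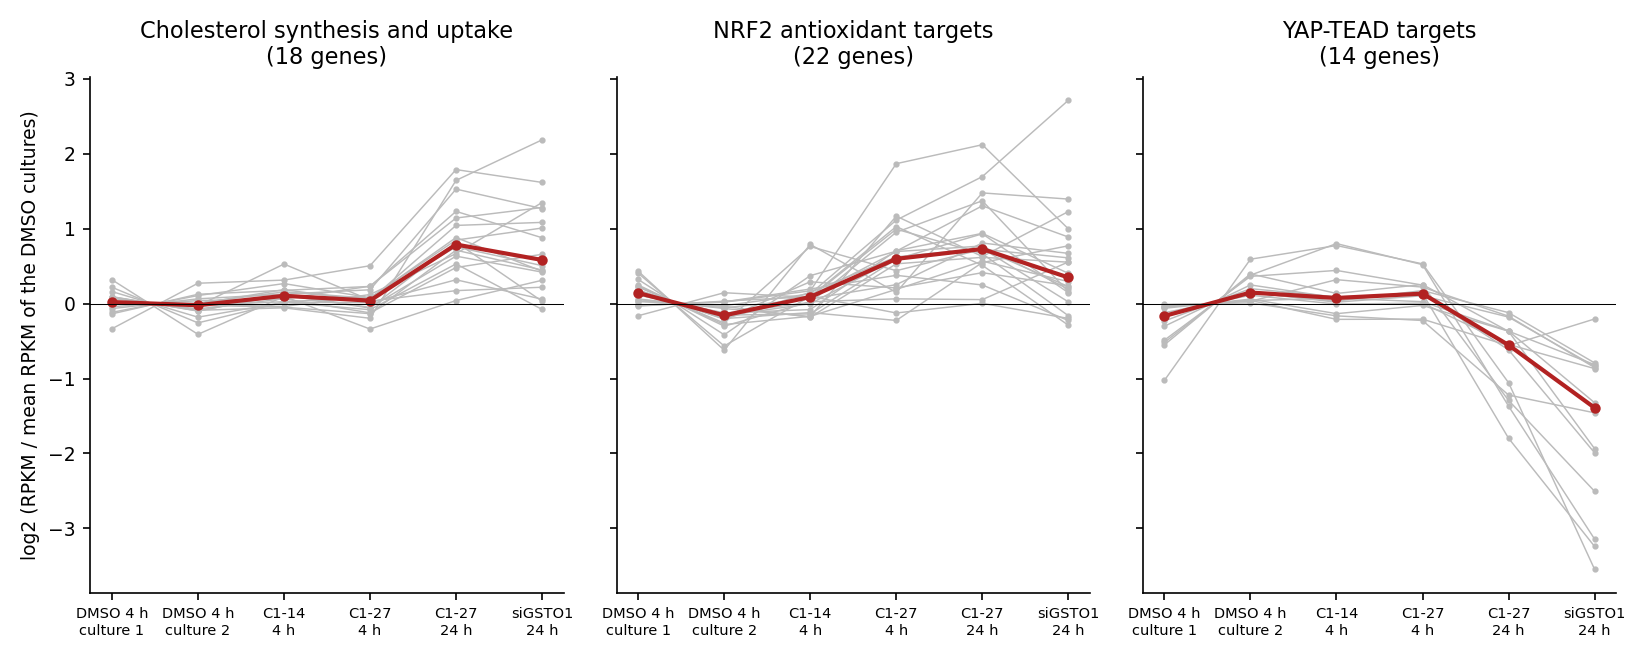
Log2 RPKM relative to the mean of the DMSO cultures (y axis) in each of the 6 libraries (x axis) for members in the filter of 3 gene lists. Grey lines join the values of 1 gene and the red line is the median. Cholesterol genes are near 0 in the 4 h cultures and at a median of 0.79 at 24 h of C1-27, NRF2 targets are at 0.60 at 4 h and 0.73 at 24 h, and YAP-TEAD targets are at 0.13 and -0.55.

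YAP-TEAD targets were lower at 24 h. Of 14 members in the filter, 8 were at least 1.4-fold lower and 0 higher, against 1.61% and 5.16% of all genes, and all 14 had a ratio below 1, from 0.26 for F3 to 0.82 for PTPN14, also under DESeq2 scaling. Their median log2 ratio was -0.59. F3, CYR61 and THBS1 passed the edgeR test. In 12 of the 14, the 24 h level was below every 4 h culture (1367 of all 7784 genes). In 4 it was past 1.4-fold below each (40 of all 7784 genes). DMSO culture 1 was lower than culture 2 over these genes by a median of 0.31 on the log2 scale, and its part in the result was not tested.

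F3 encodes tissue factor, which starts coagulation. It was at 13.4 and 19.6 RPKM in DMSO, 17.4 with C1-14, 18.1 at 4 h, 4.74 at 24 h and 1.74 with siGSTO1. The 24 h library was far below all 4 h cultures, which did not overlap it, and F3 fell by 2.01 on the log2 scale (SE 0.30, edgeR adjusted p = 1.21e-07). CYR61, a matrix-associated integrin ligand, was at 4.62 and 8.33 in DMSO, 8.80 with C1-14, 7.69 at 4 h, 2.65 at 24 h and 1.14 with siGSTO1. It fell by 1.62 (SE 0.38, adjusted p = 0.0204), and the 24 h value was 0.57 of DMSO culture 1 and 0.32 of culture 2. THBS1 was at 0.694 and 2.13 in DMSO, 2.42 with C1-14, 2.04 at 4 h, 0.679 at 24 h and 0.121 with siGSTO1. It fell from 4 h to 24 h by 1.67 (SE 0.35, adjusted p = 0.00434), yet the 24 h value lay at that of DMSO culture 1. CYR61 and THBS1 each passed 5 of the 7 alternative tests.

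CTGF, with 3 copies of the TEAD motif upstream, had 112 reads at 4 h and 36 at 24 h, a ratio of 0.27 (0.180 to 0.397) that did not pass (adjusted p = 0.48). Its RPKM was 0.441 and 0.821 in DMSO, 1.10 with C1-14, 0.904 at 4 h and 0.244 at 24 h, so the 24 h value was the lowest of these. With siGSTO1 CTGF was lower still, at 0.0714. NT5E, an ecto-nucleotidase, had a ratio of 0.50, AMOTL2, which binds YAP, one of 0.60, CRIM1 0.65 and MYOF 0.68. The Hippo kinase LATS2 and the phosphatase PTPN14, both feedback targets of the pathway, had ratios of 0.82. Of caveolae and actin genes, 2 of 18 (CAV1 at 0.64 and FLNA at 0.71) were at least 1.4-fold lower and 0 higher (1.61% and 5.16% of all genes). Ratios below 1 were seen in 14, against 3186 of all 7784 genes. In 0 of the 18 was the 24 h level past 1.4-fold below each of the 4 cultures at 4 h (40 of all 7784 genes). CAV1, the main caveolar coat protein, was at 7.30 and 15.1 RPKM in DMSO, 12.9 at 4 h and 8.21 at 24 h, so the 24 h value lay between the DMSO cultures.

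Other genes fell. GALNT5, a mucin-type glycosyltransferase, was at 1.03 and 0.847 in DMSO, 0.822 with C1-14, 0.672 at 4 h, 0.152 at 24 h and 0.278 with siGSTO1. Its 24 h value was the lowest of all, and it fell by 2.22 (SE 0.34, edgeR adjusted p = 2.71e-07). ETS1, a transcription factor, was at 0.312 and 0.397 in DMSO, 0.357 with C1-14, 0.310 at 4 h and 0.103 at 24 h, and fell by 1.67 (SE 0.32, adjusted p = 0.000593). ADAMTS17, a secreted metalloprotease, was at 0.209 at 4 h and 0.0979 at 24 h and fell by 1.17 (SE 0.29, adjusted p = 0.0437), a call that held in 2 of the 7 alternatives.

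The other 6 genes that fell are long genes that were under 0.1 RPKM in every library. TRPS1, ODZ4, CDH2 and AUTS2 also had few reads. TRPS1 had 40 reads at 4 h and 1 at 24 h (ratio 0.021, 0.000519 to 0.124), with 11 and 2 in DMSO and 2 with C1-14. ODZ4 had 34 and 2 reads, with 5 and 13 in DMSO. CDH2, which encodes N-cadherin, had 41 and 4 reads, with 2 and 37 in DMSO. AUTS2 had 56 and 9 reads, with 1 and 9 in DMSO. For SDK1 the reads were 561 and 124, with 83 and 624 in DMSO, and for ANO2 517 and 144, with 31 and 673 in DMSO. Scaled to depth, the 24 h level of CDH2, ANO2 and AUTS2 lay between the DMSO cultures. In TRPS1, ODZ4, CDH2 and AUTS2 the C1-27 4 h library was above all others. For CDH2 it was at 0.0047 RPKM, close to DMSO culture 2 at 0.0040. None of these 6 passed the DESeq2 test. CDH2 passed 2 of the 7 alternatives, AUTS2 and ODZ4 passed 3, ANO2 passed 4, and SDK1 and TRPS1 passed 6.

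Stress response genes gave a mixed picture. Of 18 integrated stress response genes in the filter, 7 were at least 1.4-fold higher at 24 h and 1 lower (5.16% and 1.61% of all genes), and none passed the test. In 4 of the 18 the 24 h level was past 1.4-fold over each of the 4 cultures at 4 h (96 of all 7784 genes). DDIT4, an inhibitor of mTORC1, had 30 reads at 4 h and 161 at 24 h (ratio 4.52, 3.04 to 6.90, edgeR adjusted p = 0.48). Its RPKM was 0.887 and 0.546 in DMSO, 0.804 with C1-14, 0.366 at 4 h, 1.65 at 24 h and 9.70 with siGSTO1, so the 4 h value was the lowest of the 6. GDF15, a stress-induced cytokine, was at 0.458 and 0.409 in DMSO, 0.388 at 4 h and 1.61 at 24 h (ratio 4.15, 3.00 to 5.90). DDIT3, which encodes CHOP, had a ratio of 1.93, SESN2 1.75 and PHGDH, the first enzyme of serine synthesis, 2.12. ATF4 itself was at 1.13 and ASNS, the asparagine synthetase, at 1.17. CHAC1, which degrades glutathione, had 6 reads at 4 h and 31 at 24 h (ratio 4.34, 1.78 to 12.7), against an RPKM of 1.98 with siGSTO1, where 24 h of C1-27 gave 0.219. STC2 was the member past 1.4-fold lower, at 0.69. Of 16 endoplasmic reticulum chaperone and quality control genes, MANF (1.75) and XBP1 (1.46) were at least 1.4-fold higher and 0 lower (5.16% and 1.61% of all genes). Ratios above 1 were seen in 14 (12 under DESeq2 scaling), against 4598 of all 7784 genes (2991 under DESeq2 scaling). DNAJB9 was at 0.569 and 0.557 in DMSO, 0.876 at 4 h and 1.09 at 24 h.

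Of 18 p53 targets, 5 were at least 1.4-fold higher and 1 lower (5.16% and 1.61% of all genes). At 24 h, 1 was past 1.4-fold over each of the 4 cultures at 4 h (96 of all 7784 genes). Among the 5 was CDKN1A, encoding p21, at 1.46 (1.32 to 1.61), with 1.18 and 1.32 RPKM in DMSO, 1.52 at 4 h, 2.22 at 24 h and 6.79 with siGSTO1. PLK2 was the lower one, at 0.48 (0.452 to 0.518), with 5.26 and 10.8 in DMSO and 4.61 at 24 h. Among immediate-early genes, EGR1 (2.19) and FOS (1.94) were higher, whereas MYC (0.55) and FOSL1 (0.61) were lower, and none passed the test. MYC was at 22.8 and 20.2 RPKM in DMSO, 19 with C1-14, 18.3 at 4 h, 10.1 at 24 h and 11 with siGSTO1, so both 24 h cultures lay below all 4 h cultures. ERK feedback genes were split: ETV5 had a ratio of 1.89, and ERRFI1 (0.67), EPHA2 (0.70) and DUSP5 (0.70) were lower. DKK1, a Wnt antagonist and target, was at 44.1 at 4 h and 22.4 at 24 h (ratio 0.51, 0.488 to 0.531), with 36.7 and 46.8 in DMSO. BMP4 was at 2.53 and 1.49 (ratio 0.59), with 1.93 and 2.91 in DMSO.

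Few cell cycle and housekeeping genes were past 1.4-fold between the times. Of 30 DNA replication and G1-S genes, CCNE2 (0.65) was at least 1.4-fold lower and 0 were that much higher (1.61% and 5.16% of all genes). Smaller ratios below 1 were frequent among them: 23 of the 30 were below 1, with a median log2 ratio of -0.12 against 0.05 over all genes, and in 19 the 24 h level lay below all 4 cultures at 4 h, as it did in 1367 of all 7784 genes. CCND1, encoding cyclin D1, was at 4.36 and 3.36 RPKM (ratio 0.77) and CCNE1, encoding cyclin E1, at 0.968 and 1.15 (1.19). None of 21 mitosis genes and none of 31 proteasome genes was past 1.4-fold in either direction, with median log2 ratios of -0.06 and 0.06. Of 80 cytosolic ribosomal protein genes, RPS27L, a p53-responsive paralogue, was at least 1.4-fold higher (1.5) and RPL26L1 lower (0.69). Ratios below 1 were seen in 54, against 3186 of all 7784 genes, and the median log2 ratio was -0.04. In 20 of the 80 the 24 h level lay below all 4 cultures at 4 h, and in 0 above them (1367 and 2424 of all 7784 genes). Glutathione transferase genes had ratios between 0.92 (GSTO2) and 1.43 (GSTP1). Of 8 clock genes in the filter, BHLHE40 was at least 1.4-fold higher, at 1.97, and 0 were lower (5.16% and 1.61% of all genes).

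**Figure D4:**
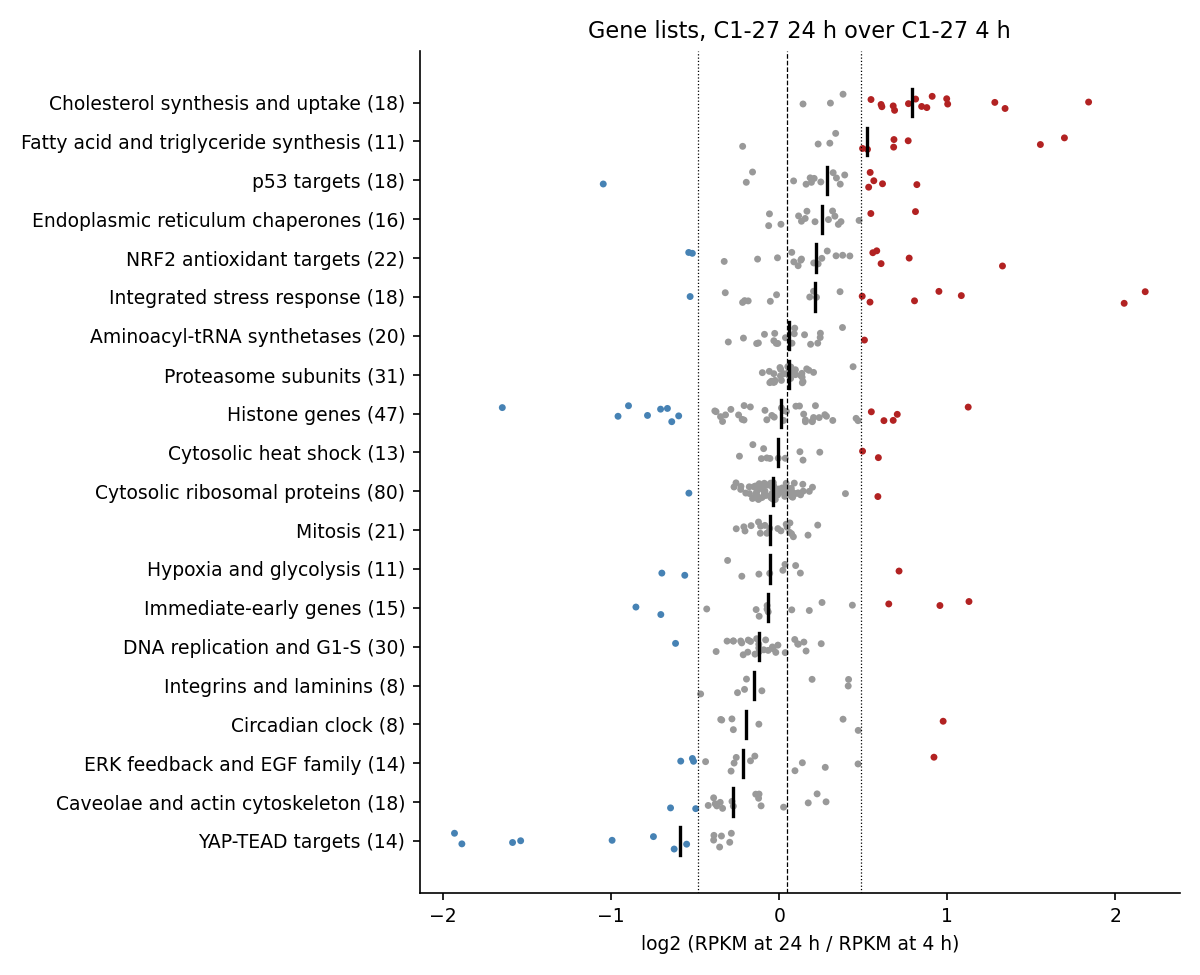
Log2 ratio of RPKM at 24 h over 4 h (x axis) for members in the filter of each gene list with 8 or more such members (number in brackets). Points are genes, red and blue beyond 1.4-fold (dotted lines), the bar is the list's median and the dashed line the median of all genes at 0.05. Cholesterol genes (0.79) and fatty acid genes (0.53) are furthest right and YAP-TEAD targets (-0.59) furthest left.

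Set against the DMSO mean, the genes in the 3-way filter (7794) fell into time classes at 1.4-fold. Late differences, past 1.4-fold from DMSO at 24 h but not at 4 h and also past 1.4-fold between the times, were the most frequent, with 143 higher (1.83%) and 93 lower (1.19%). Progressive differences, past DMSO at 4 h and a further 1.4-fold away at 24 h, numbered 4 higher (0.0513%) and 8 lower (0.103%). Sustained differences, with both times past DMSO and within 1.4-fold of each other, numbered 20 higher (0.257%) and 55 lower (0.706%). Transient differences, past DMSO at 4 h and 1.4-fold back from there at 24 h, numbered 7 higher (0.0898%) and 50 lower (0.642%). A return to the DMSO level was not required for this class. Genes past DMSO at 24 h alone but within 1.4-fold of their 4 h level are in no class. These are counts of ratios with no test.

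Late higher genes included DHRS3, INSIG1, IDH1, GDF15, FDFT1 and FTL, and 103 of the 143 were past 1.4-fold at 24 h against each DMSO culture. The progressive higher genes were STARD4, SLC7A11, NQO1 and RPL23AP32. The last is a ribosomal protein pseudogene that overlaps SPTBN1 on the same strand, and its reads may be shared with close copies. All 4 were past 1.4-fold at 24 h against each DMSO culture, but at 4 h only SLC7A11 was. At 4 h NQO1 was 1.30-fold over DMSO culture 1. STARD4 was at 0.68 RPKM against 0.58 in DMSO culture 2, and RPL23AP32 at 0.58 against 0.47. Sustained higher genes included OSGIN1, CYP4F11, DNAJB9, GCLC, PIR and TXNRD1, and 11 of the 20 were past 1.4-fold at 24 h against each DMSO culture. The 4 h level was not part of that count: PIR, for example, was 1.37-fold over DMSO culture 1 at 4 h. The transient higher genes were HMOX1, GCLM, NAV3, HUS1B, LOC100630918, THBS1 and CTGF, of which 2 were past 1.4-fold at 4 h against each culture, HMOX1 and GCLM. At 24 h HMOX1 and GCLM were still 1.546 and 1.425-fold over the DMSO mean. NAV3, HUS1B and LOC100630918 were at 0.92 to 0.98 of it, and THBS1 and CTGF at 0.481 and 0.387. HUS1B overlaps EXOC2 on the same strand. Late lower genes included GALNT5, F3, CYR61, HIRIP3, NT5E and ALDH1A3, and 45 of the 93 were past 1.4-fold at 24 h against each culture. HIRIP3 is annotated as overlapping BOLA2 and LOC440354 on the same strand.

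The lower sustained and transient classes rested on DMSO culture 1. In 54 of the 55 sustained and 48 of the 50 transient lower genes, DMSO culture 1 was above culture 2. Against each culture alone, 6 of the 55 held at 24 h and 7 of the 50 at 4 h. For the sustained genes, the 4 h level was not part of that count. With culture 2 as the only control, the sustained lower class held 7 genes and the transient lower class 9. With culture 1 as the only control they held 465 and 144. KRT8, for example, was at 9.60 and 5.81 RPKM in DMSO, 5.25 at 4 h and 3.90 at 24 h. Against culture 2 its ratio was 0.90 at 4 h, within 1.4-fold, and 0.67 at 24 h, past it. In the progressive lower class, culture 1 was above culture 2 in 7 of the 8 genes. Against each culture alone, 7 of the 8 held at 24 h. With culture 2 as the only control this class held 2 genes, and with culture 1 it held 25. RPPH1, the RNA of RNase P, was at 172 and 38.5 in DMSO, 654 with C1-14, 56.7 at 4 h and 50.3 at 24 h. Of 47 histone genes in the filter, 20 were past 1.4-fold below the DMSO mean at 4 h (2.22% of all genes), and the DMSO cultures differed there by a median of -0.98. From 4 h to 24 h, 5 of the 47 histone genes (10.6%) were at least 1.4-fold higher and 8 (17.0%) lower, against 5.16% and 1.61% of all genes. Their median log2 ratio was 0.01. In 13 the 24 h level lay below all 4 cultures at 4 h, and in 2 above them (1367 and 2424 of all 7784 genes).

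The share of genes at least 1.4-fold higher fell with gene size, whereas the share lower was largest in the shortest and longest size classes. In the classes between, 1.04% to 1.77% were lower. Between 300 and 3000 bp, 12.6% of 438 genes were at least 1.4-fold higher at 24 h and 6.16% lower, whereas above 300000 bp 1.48% of 135 genes were higher and 4.44% lower. Median log2 ratios in the size classes were between 0.00 and 0.10. The part of gene size, which also sets the reads per gene, was not tested.

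The siGSTO1 culture, also labelled 24 h, was set against DMSO as a second 24 h against 4 h contrast that shares no library with C1-27 24 h over 4 h. A sentence of the study's methods can be read as giving 4 h for this culture, in which case it would be no such contrast. Of 7698 genes in both filters, 392 (5.09%) were at least 1.4-fold higher in the C1-27 contrast and 639 (8.30%) in the siGSTO1 contrast, and 202 were in both, 51.5% of the first list and 31.6% of the second. Lower in both were 67 genes, 55.8% of 120 (1.56%) and 12.9% of 521 (6.77%). Opposite directions were seen in 8 genes higher with C1-27 and 8 lower. Across 7697 genes the log2 ratios had a Pearson r of 0.60 and a Spearman rho of 0.58, as a description, since genes are not independent replicates. By the labels the contrasts share the later harvest, whereas both C1-27 cultures received the inhibitor, and GSTO1 activity was not measured in these files.

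Sizes differed between the contrasts for some groups. The median log2 ratio of cholesterol genes was 0.79 for C1-27 24 h over 4 h and 0.58 for siGSTO1 over DMSO, and that of fatty acid genes 0.53 and 0.71. YAP-TEAD targets had medians of -0.59 and -1.39. Integrated stress response genes had 0.21 and 0.85, with 7 and 14 of 18 at least 1.4-fold higher (402 and 643 of all 7784 genes). NRF2 targets had 0.22 and 0.35. For DHRS3 the fold was 6.55 with C1-27 and 2.53 with siGSTO1. These differences between contrasts were not tested.

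**Figure D5:**
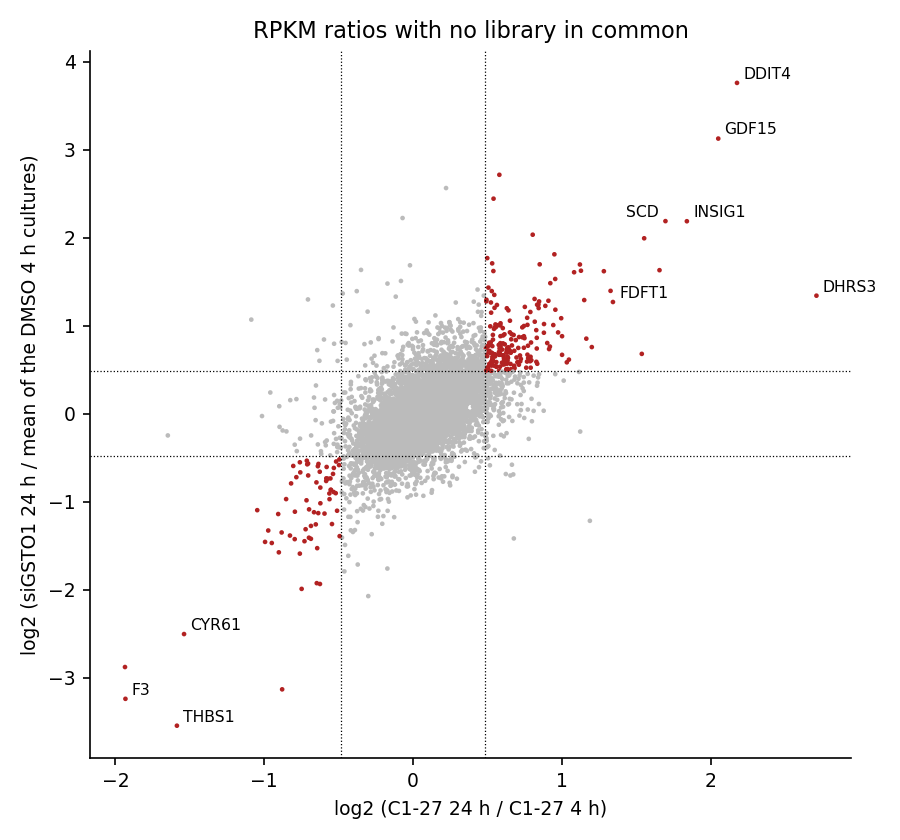
Log2 RPKM ratio of siGSTO1 24 h over the mean of the DMSO 4 h cultures (y axis) against that of C1-27 24 h over C1-27 4 h (x axis), 1 point per gene of 7697 with values in both. Dotted lines mark 1.4-fold, and red points are the 202 genes higher and 67 genes lower in both contrasts. F3, THBS1 and CYR61 lie at the lower left and DDIT4, GDF15, INSIG1 and SCD at the upper right.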

How the data were processed

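Bru-seq libraries of 6 HCT116 cultures were used. For every gene on either strand the authors deposited an expected count over exons and introns that is not normalized, that count per bp (a signal, not used here) and RPKM. Per the submitters' processing notes the tools were CASAVA 1.8.2, Bowtie 0.12.8, TopHat 1.4.1 and bedtools 2.16.2, with build hg19. Multiply placed reads may affect paralogues.

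Sense rows of genes above 300 bp were kept. Ratios of deposited RPKM used no pseudocount, a mean RPKM above 0.5 and the study's threshold of 1.4-fold. Intervals are exact 95% (Clopper-Pearson) and cover counting error only. Counts were rounded and tested with edgeR 4.0.16 in R 4.3.3 (TMM, genes with at least 10 counts in at least 2 libraries, Benjamini-Hochberg adjustment). The SE is the log2 fold change divided by the root of F. DESeq2 1.42.0 was an alternative. Scripts used Python 3.11.15, and the fits were tested on simulated data.

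Named genes were, within the filter, up to 12 per direction past the test and 1.4-fold (or the 5 largest if fewer than 5), up to 6 per time class with at least 100 counts in a C1-27 or DMSO library, up to 6 per list and a fixed set. Calls under the RPKM filter, and list members named to fill in a pathway, were chosen after their values were seen. Results for some list members are not reported here. The members and lists were chosen with earlier results of these data known.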

Additional observations from a re-analysis of the deposited data

Results flagged for a closer look

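Reads on the strand opposite a gene, which enter no comparison above, were at least 2-fold higher in the C1-27 24 h library than in C1-27 4 h and in both DMSO cultures, with at least 100 reads at 24 h, over 8 genes. The ratio of 24 h to 4 h was 5.23 over CAMK4, 2.91 over HOXA3, 2.57 over MTERFD3, 2.37 over A2M, 2.28 over KLHL2, 2.15 over IVNS1ABP, 2.14 over PIGB and 2.1 over MLLT11. CAMK4 had 17 such reads at 4 h and 13 and 22 in the DMSO cultures, and STARD4, a sterol carrier with a sense ratio of 2.43, is annotated on that strand within 50000 bp. No ratio has a replicate check.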

How the results depend on the processing

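Genes past 1.4-fold from 4 h to 24 h numbered 402 higher and 125 lower. They numbered 248 and 203 with TMM factors, 199 and 269 with DESeq2 size factors, 76 and 58 with a pseudocount of 0.5 RPKM, and 2967 and 1277 with no RPKM filter. A mean RPKM above 1 left 135 higher, and all gene sizes gave 217 lower. Of the higher and lower genes, 96 and 40 were also past 1.4-fold against each of the 4 cultures at 4 h, an alternative chosen after seeing the data. The edgeR calls, 6 and 12, were 2 and 3 with DESeq2, which kept 5 of the 18 genes, and the other 6 settings kept 12 to 16. No edgeR fit without a DMSO culture was run, since no residual degree of freedom is left.

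With 1 DMSO culture at a time, late higher genes ranged from 123 to 256, late lower from 48 to 101, progressive higher from 4 to 6, progressive lower from 2 to 25, sustained higher from 26 to 73, sustained lower from 7 to 465, transient higher from 3 to 26 and transient lower from 9 to 144. Genes shared with siGSTO1 ranged from 169 to 266 higher and 60 to 70 lower. A mean RPKM above 1 gave 56 late higher, 59 late lower, 2 progressive higher, 3 progressive lower, 12 sustained higher, 36 sustained lower, 3 transient higher and 12 transient lower genes. A pseudocount of 0.1 RPKM gave 2 progressive higher, 4 transient higher and 28 transient lower genes. TMM factors gave 142 late lower genes, and 115 higher and 114 lower genes shared with siGSTO1. Causes of these shifts were not tested. Of 890 values of named genes under the alternatives, 0 past 1.4-fold or the test reversed, 40 moved by more than 0.39 on the log2 scale, the SD across genes of the ratio between the DMSO cultures (all under a pseudocount) and 35 no longer passed the test.

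No paired analysis was possible because only the DMSO cultures carry replicate numbers. The ratio of 24 h to 4 h rests on 1 culture each, and genes with few reads, such as TRPS1 and ODZ4, are limited by depth.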
